A study of Homo sapiens with 16 samples.

Results

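Glycolysis and glucose transport were followed through 32 listed genes: the glucose transporters, the enzymes from hexokinase to lactate dehydrogenase, the enzymes that set fructose 2,6-bisphosphate, the lactate transporters and the kinases of pyruvate dehydrogenase with their target. Members were chosen by name, and all 32 were found among the 35052 genes of the annotated tables and among the 17559 genes that passed the low-count filter. K562, an established human leukaemia line labelled wild type, was treated with 25 nM PMA, a phorbol ester that activates protein kinase C and moves these cells toward a megakaryocyte-like state. RNA was sequenced before treatment (0 h, the control), early (0.5 and 1.5 h), at 3 and at 6 h, and on the following days (24, 48 and 72 h), with 2 libraries at each of the 8 times and 16 in all. Fresh medium was given after 24 and 48 h. Up to 24 h medium age rose with treatment time, so the 2 cannot be told apart there. At 48 and 72 h treatment time cannot be told apart from the medium changes. The labels do not say that the replicates came from separate cultures, so p-values measure the spread between these libraries, which may be technical, and all libraries come from 1 cell line.

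Glycolysis splits glucose into pyruvate in the cytosol and yields ATP and NADH. Most of its steps can be run by several isozymes that come from different genes or from different transcripts of a gene, and tissues differ in which they use. Hexokinase, phosphofructokinase and pyruvate kinase are its regulated steps. Lactate dehydrogenase and the pyruvate dehydrogenase kinases act where pyruvate either becomes lactate or is used in the mitochondrion.

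Libraries held 27285773 to 54056289 estimated reads. Levels of a gene across libraries are given as CPM, the count relative to the TMM-scaled library size, and levels of different genes are compared as TPM, which is per length. The members together took 0.717 to 0.925% of a library's TPM. In bulk RNA, fewer cells of a type and less RNA per cell cannot be told apart. Erythroid markers, which K562 cells carry, summed to 1398 to 2423 CPM over all libraries. The sums were 2079 and 2365 CPM at 0 h, 1462 and 1398 at 24 h, then 2033 and 1543 at 72 h. Of 13 tested, 2 were called higher (31.7% of all genes) and 10 lower (26.6%) at 24 h. At 72 h 2 were higher (31.7%) and 6 lower (26.9%). Megakaryocyte markers rose from 64.0 to 104 CPM at 0 to 1.5 h to 5417 and 6168 CPM at 72 h. The megakaryocyte sum was mostly THBS1 and ITGB3, and GP1BA, GP9, PF4 and PPBP stayed at or under 0.641 CPM in every library. The sum of 20 markers of other cell types went from 387 to 456 CPM at 0 to 1.5 h to 2233 and 2394 CPM at 72 h, mostly KRT8 (up to 2135 CPM). COL1A1 reached 244, LYZ 83.8, EPCAM 83.2 and PECAM1 48.5 CPM in their highest library, and 9 of the 16 tested were called higher and 4 lower at 72 h, with MS4A1, CD2, COL3A1 and CD3E at or under 0.344 CPM. The part of these marker shifts in the results on the members was not tested.

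Both transporters, PFKP, the muscle-type pyruvate kinase gene PKM, ENO1, ENO2, TPI1, TIGAR and BPGM were higher than at 0 h wherever they passed the test, as was PFKFB3. A total of 11 members were lower wherever they passed it: HK2, GPI, PFKL, PFKM, PFKFB4, ALDOC, PGK1, LDHA, LDHB, SLC16A1 and PDK4. HK1, PFKFB2, ENO3, SLC16A3, PDK2 and PDHA1 were higher at some times and lower at others, but the low values of HK1 and PFKFB2 and the high value of PDHA1 held in 5, 5 and 8 of 15 alternatives. ALDOA, GAPDH, PGAM1, PDK1 and PDK3 passed at no time against 0 h. The test was edgeR's quasi-likelihood F-test with Benjamini-Hochberg adjustment over 17559 genes, called under 0.05, and applies to every adjusted p of a single gene given here.

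**Figure D1:**
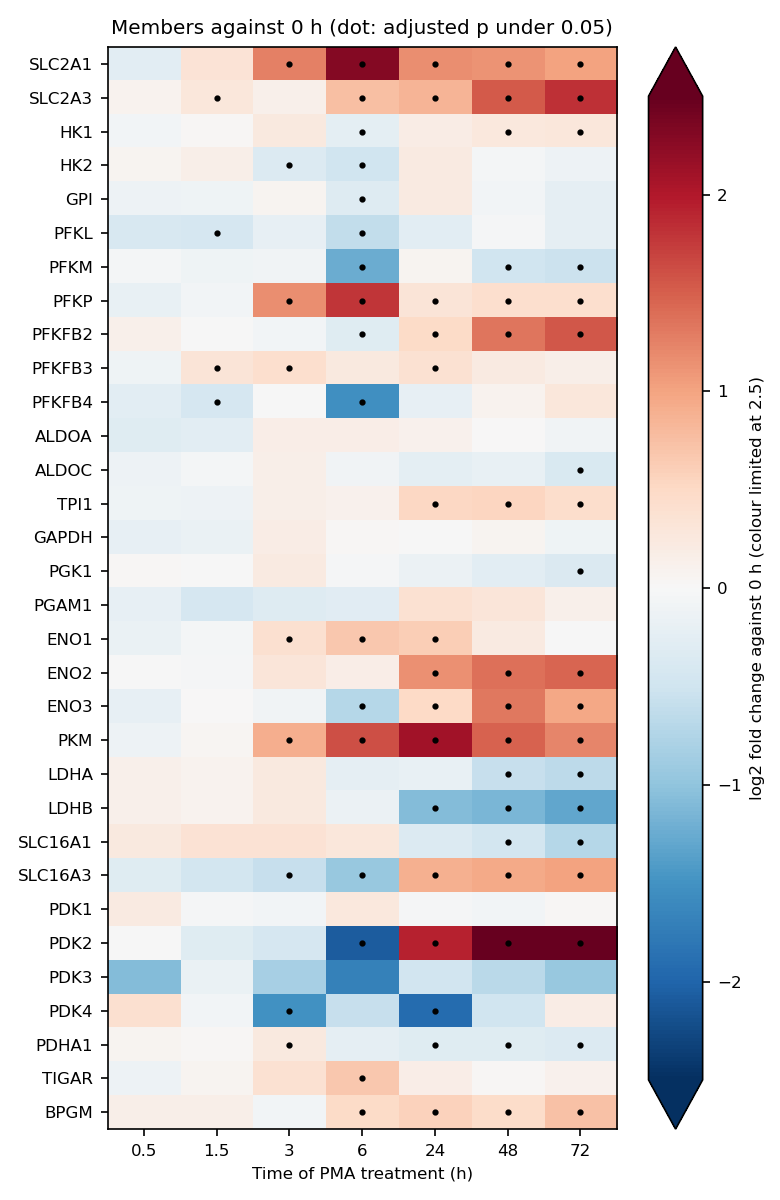
The log2 fold change of each of the 32 members (rows) against 0 h is coloured by time of PMA treatment in h (columns), red for higher and blue for lower, with a dot where the adjusted p was under 0.05. SLC2A1, PFKP and PKM turn red by 3 h, while PDK2 goes from -2.08 at 6 h to 3.63 at 72 h.

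No member passed at 0.5 h, where 0.171% of all genes did. At 1.5 h 4 members were called (17.1% of all genes), 2 higher (9.05% of all genes) and 2 lower (8.05%). The 3 h libraries gave 9 calls (42.0% of all genes), 6 higher (21.5%) and 3 lower (20.5%). At 6 h 17 members passed (57.2% of all genes), 7 higher (27.8%) and 10 lower (29.4%). After a day 16 passed (58.3% of all genes), 13 higher (31.7%) and 3 lower (26.6%). The 48 h comparison called 17 (54.3% of all genes), 12 higher (30.2%) and 5 lower (24.1%). Finally, 19 were called at 72 h (58.6% of all genes), 12 higher (31.7%) and 7 lower (26.9%). From 6 h on the shares called in either direction lie near the background, so the number of calls is not a result about these genes. At 24 h the split of 13 higher and 3 lower leaned further to higher than that of all genes. This lean was not tested and depended on the scaling, as given below. What follows is which isozymes moved and when. The members' median log2 fold change was -0.12 at 6 h, 0.21 at 24 h and 0.12 at 72 h, against 0.00, -0.01 and -0.03 over all genes tested.

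The split between higher and lower depended on the scaling. Scaling to total counts in place of TMM shifted every log2 fold change against 0 h down. The shift was -0.09 at 1.5 h and -0.28 at 3 h, was widest with -0.37 at 6 h, and came to -0.25 for 24 h and -0.16 for both later times. It was upward between later times, 0.12 for 24 h against 6 h and 0.09 for 72 h against 24 h. Calls at 1.5 h then were 0 higher and 5 lower, those at 3 h 3 and 9, and those at 6 h 5 and 18. The 24 h calls became 8 higher and 10 lower, the 48 h calls 10 and 9, and the 72 h calls 11 and 11. The second 0 h library stands apart: the gap between transcript length and effective length, a stand-in for fragment length, was 199 nt there, 229 to 248 nt in the other replicate 2 libraries and 210 to 221 nt in replicate 1. Leaving out the first 0 h library also lost calls of single members, no fewer than leaving out the second, so such losses are not particular to the second. Every change against 0 h uses the second 0 h library. Without it, no member was called at 0.5 or 1.5 h, the 3 h count became 11 and the 6 h count 13, and the later times gave 18 (24 h), 16 (48 h) and 18 (72 h); 69 calls of single members against 0 h were kept and 13 were lost. The members' median log2 fold change at 0.5 h was 0.03 in the first replicate set and -0.20 in the second. Directions below are relative to the TMM scale. Every called member had the same sign in both replicate sets, with no overlap between the libraries of the 2 times. With so few libraries a call nearly requires this, and the share over all called genes was not computed, so it is no further support.

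**Figure D2:**
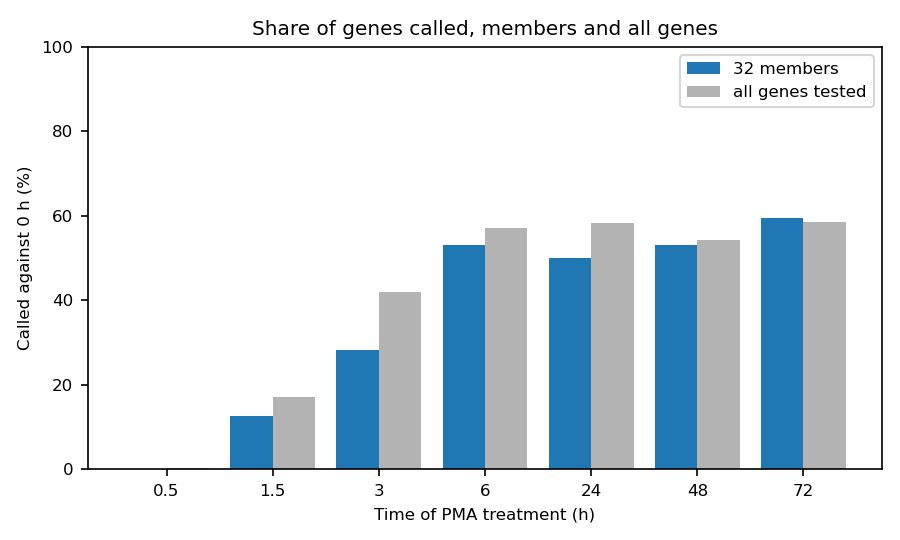
Bars give the percentage of the 32 members (blue) and of all 17559 genes tested (grey) called against 0 h at each time of PMA treatment in h. The members' bar is 53.1% at 6 h and 59.4% at 72 h, beside 57.2% and 58.6% for all genes.

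Glucose enters through the transporters GLUT1, encoded by SLC2A1 (GRCh38 chromosome 1, 42925375 to 42959176, minus strand), and GLUT3, encoded by SLC2A3 (chromosome 12, 7919230 to 7936275, minus strand). They peaked at different times. SLC2A1 stood at 74.2 and 86.7 CPM at 0 h, 219 and 166 at 3 h, 404 and 387 at 6 h, 177 and 185 at 24 h, 172 and 181 at 48 h, then 155 and 166 at 72 h. Both 6 h libraries lay above every other library. The log2 fold change was 2.30 at 6 h (SE 0.12, adjusted p = 2.37e-09) and fell by 1.13 from 6 to 24 h (SE 0.12, adjusted p = 3.35e-06). At 72 h SLC2A1 was still above 0 h by 1.00 (SE 0.12, adjusted p = 7.3e-06).

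SLC2A3 had its peak at 72 h. Its libraries read 145 and 148 CPM at 0 h, 175 and 182 at 1.5 h, 169 and 151 at 3 h, 251 and 242 at 6 h, 260 and 266 at 24 h, 418 and 432 at 48 h, then 564 and 476 at 72 h. The log2 fold change against 0 h was 0.29 at 1.5 h (adjusted p = 0.0492, held in 5 of 15 alternatives), 0.13 at 3 h, not passing, 0.75 at 6 h (adjusted p = 9.25e-06) and 1.83 at 72 h (SE 0.10, adjusted p = 1.5e-09), and 72 h exceeded 24 h by 0.98 (adjusted p = 5.38e-06). Per length, SLC2A3 made up 52.1 and 47.6% of the TPM of the 2 transporters at 0 h, 31.4 and 31.5% at 6 h, then 72.6 and 67.2% at 72 h, so the 2 were near parity at first, GLUT1 mRNA led at 6 h and GLUT3 mRNA at 72 h.

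A ratio of isozymes was tested between the 6 libraries at 0, 0.5 and 1.5 h and the 6 at 24, 48 and 72 h, on log2 ratios of TPM, with an exact two-sided permutation test over libraries. The smallest p that 6 against 6 libraries allow is 0.00216, and p-values were adjusted over the 14 pairs tested. The test shuffles libraries singly, although libraries of the same time belong together. Ratios also moved within a set: PDK2 over PDK1 ran from -1.84 to 0.42 among the late libraries. With time points as the units the p-values would be larger, and too few arrangements would remain for any pair to reach 0.05. A ratio that passed did so with libraries as the units only. For SLC2A3 over SLC2A1 the late mean exceeded the early one by 0.64, which missed the threshold (exact p = 0.0411, adjusted 0.0523). Near-identical copies bear on SLC2A3: the pseudogene SLC2A3P1 was assigned 347 reads in 0 h replicate 2, equal to 7.57% of the SLC2A3 reads there, and a median of 0 over all libraries. For SLC2A1, 51.7% of all reads were assigned to a transcript annotated as nonsense-mediated decay.

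**Figure D3:**
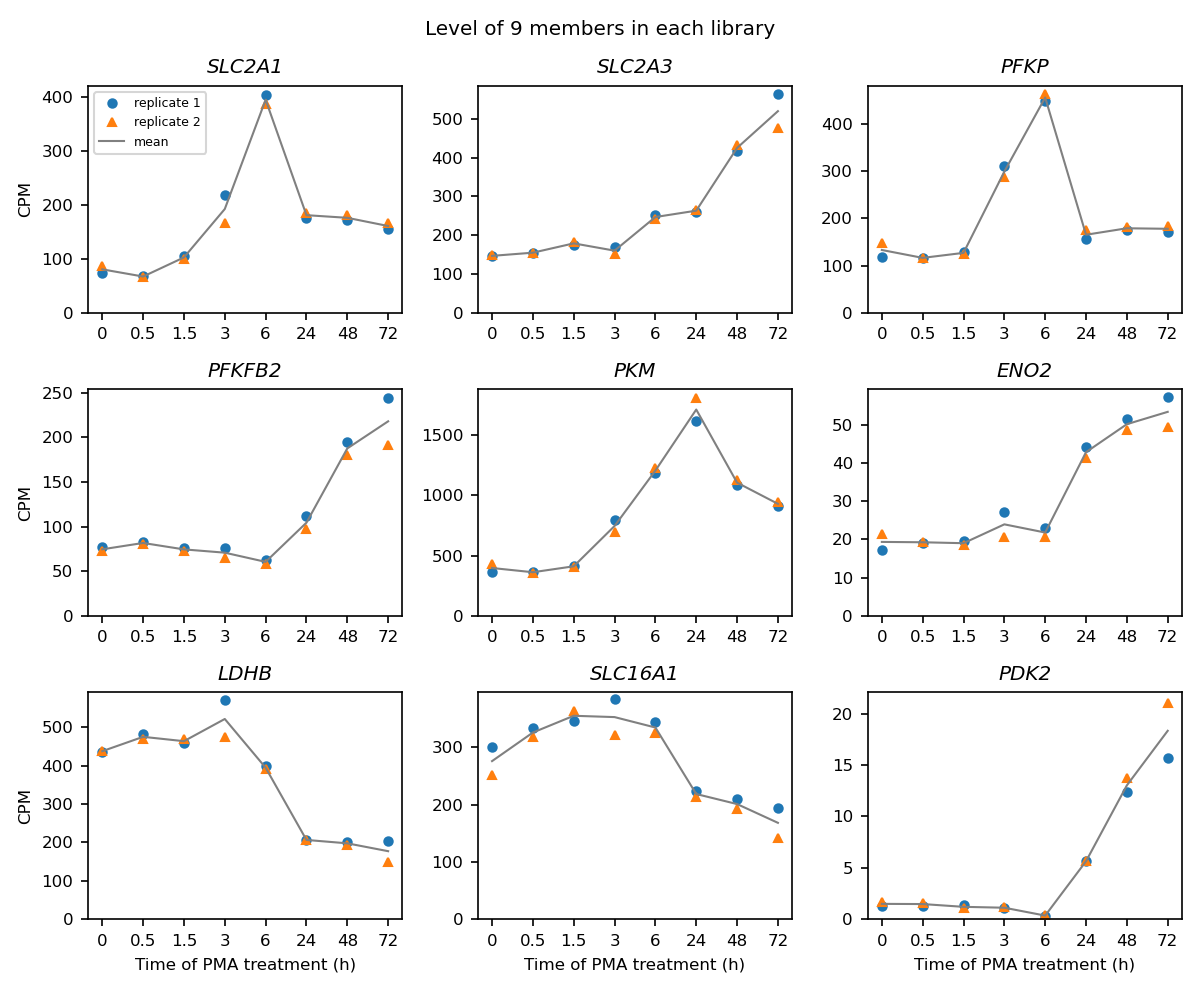
CPM of 9 members (panels, each from 0) at each time of PMA treatment in h; circles are replicate 1, triangles replicate 2 and the line joins their means. SLC2A1 and PFKP are highest at 6 h, PKM at 24 h, and SLC2A3, PFKFB2, ENO2 and PDK2 at 72 h.

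Hexokinases trap glucose in the cell as glucose 6-phosphate. HK1 (chromosome 10, 69269984 to 69401884, plus strand), the form bound to mitochondria in most tissues, was the main hexokinase gene, with 93.1 to 96.3% of the TPM of HK1 and HK2 in every library. Its gene total changed little: 478 and 553 CPM at 0 h, 418 and 447 at 6 h, then 640 and 610 at 72 h. Its log2 fold change was -0.25 at 6 h (SE 0.10, adjusted p = 0.0453) and 0.28 at 72 h (SE 0.10, adjusted p = 0.0301). The 6 h call held in 5 of 15 alternatives and was -0.15 without 0 h replicate 2, and the 72 h call held in 9 of 15. HK2, the insulin-regulated hexokinase, had a log2 fold change of -0.34 at 3 h (adjusted p = 0.0108) and -0.51 at 6 h (SE 0.10, adjusted p = 0.000447), with 51.7 and 51.4 CPM at 0 h and 35.4 and 37.1 CPM at 6 h. It then stood at 57.5 and 62.3 CPM at 24 h. The late mean log2 ratio of HK2 to HK1 differed from the early one by -0.32 (exact p = 0.0260, adjusted 0.0364), with overlapping libraries, and lost the threshold in several of the alternatives.

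Within HK1 the share of the minor transcript dropped after 6 h. HK1-201 starts 3059 bases before HK1-202 and carries the first exon known from red cells, whose protein lacks the mitochondrial binding sequence of the form made elsewhere. The split between the transcripts rests on the 2 first exons and on the 3′ end, where HK1-202 ends at 69401882 and HK1-201 at 69401443. Only the coding parts of the first exons are shown. The whole exons are 230 bases in HK1-201 and 167 in HK1-202, and their untranslated parts differ too. Capitals mark the start codon, and both come from GENCODE release 29 on GRCh38, at chr10:69315955-69316014 and chr10:69318948-69319010, plus strand.
HK1-201 exon 1, coding part: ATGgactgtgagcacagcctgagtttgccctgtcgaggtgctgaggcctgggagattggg
HK1-202 exon 1, coding part: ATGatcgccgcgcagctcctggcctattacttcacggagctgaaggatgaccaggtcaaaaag

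HK1-201 held 95.7 and 88.6 TPM at 0 h, 63.1 and 52.5 at 6 h, 44.2 and 40.0 at 24 h, then 58.3 and 52.5 at 72 h. HK1-202 held 126 and 143 TPM at 0 h, 90.5 and 92.2 at 6 h, 193 and 192 at 24 h, then 228 and 217 at 72 h. The share of HK1-201 in the 2 forms was 36.3 to 43.2% in the 10 libraries up to 6 h and 17.2 to 20.6% in the 6 later libraries, with no overlap. The HK1 forms were picked after their values were seen, so they are described without a test.

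The 250 bases before the start that RefSeq gives for HK1-201 (GRCh38.p14, chr10:69315519-69315768, plus strand) are shown because this start lost share. Capitals mark a match to TGANTCA, a motif that AP-1 factors can bind. Of the 3 motifs searched on both strands, ACGTG and GATAA had no match in these 250 bases, and TGANTCA is marked because it was the motif that matched; GATAA occurs in the 50 bases that follow the start.
HK1-201 upstream: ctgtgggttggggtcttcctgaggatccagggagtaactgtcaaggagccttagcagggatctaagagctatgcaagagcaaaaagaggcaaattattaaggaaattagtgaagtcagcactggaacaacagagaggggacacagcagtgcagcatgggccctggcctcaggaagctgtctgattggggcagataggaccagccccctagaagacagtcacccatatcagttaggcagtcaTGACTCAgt

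Windows of 300 bases around the starts were listed by RefSeq for 29 members, 58 windows in all. TGANTCA lay in 6.90% of them and in 7.71% of all 35116 windows, GATAA in 19.0 and 22.7%, and ACGTG, the core of the hypoxia response element, in 37.9 and 21.4%. Several windows of a gene overlap, and 18 of the 29 members had an ACGTG in at least 1 window. The PKM window held no ACGTG. The motifs were chosen with the results known, a match is not a site, and nothing follows about the factors.

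GPI, which turns glucose 6-phosphate into fructose 6-phosphate, fell by 0.33 at 6 h (SE 0.11, adjusted p = 0.0194) and was higher at 24 h than at 6 h by 0.56 (adjusted p = 0.000771). Its libraries read 260 and 321 CPM at 0 h, 231 and 231 at 6 h, then 331 and 350 at 24 h. The fall at 6 h held in 8 of 15 alternatives and was -0.18 without 0 h replicate 2.

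Phosphofructokinase commits the sugar to glycolysis and is built from liver (PFKL), muscle (PFKM) and platelet (PFKP) subunits. The subunits moved in opposite directions at 6 h. PFKP (chromosome 10, 3066333 to 3137712, plus strand) held 119 and 147 CPM at 0 h, 312 and 287 at 3 h, 449 and 464 at 6 h, 156 and 175 at 24 h, then 171 and 185 at 72 h. Every library at 3 and 6 h lay above all others. Its log2 fold change was 1.78 at 6 h (SE 0.11, adjusted p = 7.05e-09), fell by 1.46 to 24 h (adjusted p = 9.63e-08) and was 0.42 at 72 h (SE 0.10, adjusted p = 0.00339).

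PFKM went from 30.6 and 34.1 CPM at 0 h to 14.3 and 12.9 at 6 h, and stood at 35.6 and 32.3 CPM at 24 h and 24.8 and 19.9 at 72 h. It fell by 1.25 at 6 h (SE 0.12, adjusted p = 6.62e-07) and by 0.54 at 72 h (SE 0.11, adjusted p = 0.00114). PFKL read 115 and 144 CPM at 0 h and 89.3 and 79.8 at 6 h, and fell by 0.61 there (SE 0.14, adjusted p = 0.00159). The 6 h libraries of both genes lay under all 0 h libraries. Per length, PFKP made up 49.2 and 48.6% of the TPM of the 3 subunits at 0 h, 85.2 and 84.9% at 6 h, then 65.0 and 58.9% at 72 h. Late against early, PFKM over PFKL fell by 0.44 (exact p = 0.0152, adjusted 0.0236) and PFKP over PFKL was higher by 0.29 (exact p = 0.0584, adjusted 0.0682), which did not pass; both sets of libraries overlapped. PFKM over PFKL lost the threshold on estimated reads (-0.38) and with protein-coding transcripts only (-0.63).

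The PFKFB enzymes make and break fructose 2,6-bisphosphate, the strongest activator of phosphofructokinase. PFKFB2 (chromosome 1, 207034366 to 207081024, plus strand), known from heart, was the late form. Its libraries read 76.9 and 72.2 CPM at 0 h, 62.5 and 58.5 at 6 h, 111 and 97.4 at 24 h, 195 and 180 at 48 h, then 245 and 191 at 72 h. All libraries from 24 h on lay above all earlier ones. The log2 fold change was -0.30 at 6 h (SE 0.12, adjusted p = 0.0446) and 1.55 at 72 h (SE 0.12, adjusted p = 9.59e-08). The fall at 6 h held in 5 of 15 alternatives and was 0.021 with counts derived from TPM.

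PFKFB3, the inducible form, was higher at 1.5, 3 and 24 h, by 0.33 (adjusted p = 0.0417), 0.42 (adjusted p = 0.00439) and 0.37 (adjusted p = 0.00618), and ranged from 27.4 to 44.7 CPM. The call at 1.5 h held in 6 of 15 alternatives, and with counts derived from TPM the later values turned to -0.0087 at 3 h and -0.056 at 24 h. Its mean TPM was 22.3 at 0 h, 18.2 at 3 h and 19.5 at 24 h. PFKFB4, first known from testis, dipped at 6 h: it read 17.1 and 17.3 CPM at 0 h, 6.15 and 5.66 at 6 h, 15.5 and 14.2 at 24 h, then 22.1 and 19.5 at 72 h. It fell by 1.54 at 6 h (SE 0.14, adjusted p = 3.33e-07), with both 6 h libraries under every other. PFKFB2 made up 39.9 and 38.8% of the TPM of the 3 forms at 0 h and 66.1 and 60.8% at 72 h. The ratio of PFKFB2 to PFKFB3 was higher late by 1.32 (exact p = 0.00216, the smallest possible, adjusted 0.00505), without overlap. PFKFB4 over PFKFB3 was higher late by 0.64 on TPM (exact p = 0.00649, adjusted 0.0130), with overlap, but by 0.11 on estimated reads and 0.44 with protein-coding transcripts only, neither of which passed.

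Aldolase cuts fructose 1,6-bisphosphate, and ALDOA, the muscle and red-cell form, was one of the most abundant members, at 879 to 1175 TPM. It passed at no time against 0 h, with log2 fold changes of -0.30 to 0.17. ALDOC, the brain form, fell by 0.39 at 72 h (SE 0.13, adjusted p = 0.0209, held in 9 of 15 alternatives), from 47.9 and 55.7 CPM to 39.8 and 39.4. The late log2 ratio of ALDOC to ALDOA differed from the early one by -0.37 (exact p = 0.00216, adjusted 0.00505), without overlap.

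TPI1, which interconverts the triose phosphates, read 253 and 283 CPM at 0 h, 373 and 390 at 24 h, then 384 and 339 at 72 h. It was higher by 0.51 at 24 h (SE 0.11, adjusted p = 0.00139), 0.53 at 48 h and 0.43 at 72 h, and the libraries did not overlap those of 0 h. GAPDH, which makes the NADH of the pathway, passed neither at a time point nor over the whole course (adjusted p = 0.137), with 1183 to 1759 TPM. Its log2 fold changes against 0 h lay between -0.21 and 0.18.

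PGK1, the first ATP-yielding step, fell by 0.35 at 72 h (SE 0.11, adjusted p = 0.0132), from 279 and 280 CPM to 244 and 193. PGAM1, which moves the phosphate to the next carbon, passed against 0 h at no time but rose from 6 to 24 h, by 0.65 (SE 0.16, adjusted p = 0.00432), with 147 and 122 CPM at 6 h and 220 and 202 at 24 h. Its pseudogenes were assigned reads equal to 2.12 to 4.03% of its own.

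Enolase makes phosphoenolpyruvate. ENO1, the form of most tissues, carried 95.6 to 98.9% of the TPM of ENO1, ENO2 and ENO3. It read 1434 and 1707 CPM at 0 h, 2570 and 2464 at 6 h, 2356 and 2447 at 24 h, then 1661 and 1472 at 72 h. The rise was 0.68 at 6 h (SE 0.13, adjusted p = 0.000359), and from 24 to 72 h it fell by 0.62 (adjusted p = 0.00276).

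ENO2 (chromosome 12, 6913745 to 6923698, plus strand), the neuronal form, read 17.3 and 21.4 CPM at 0 h, 23.1 and 20.5 at 6 h, 44.3 and 41.4 at 24 h, then 57.3 and 49.5 at 72 h. All libraries from 24 h on were above all earlier ones, and the log2 fold change at 72 h was 1.46 (SE 0.14, adjusted p = 6.91e-07). ENO3, the muscle form, dipped to 3.93 and 3.43 CPM at 6 h from 5.62 and 6.50 at 0 h, and reached 15.1 in both libraries at 48 h. Its log2 fold change was -0.72 at 6 h (adjusted p = 0.000606) and 1.32 at 48 h (SE 0.13, adjusted p = 1.68e-06). ENO3 overlaps PFN1 on the other strand, and the counting strand is not given in the sources used here. The ratio of ENO2 to ENO1 was higher late by 1.00 (exact p = 0.00216, adjusted 0.00505), without overlap, while ENO3 over ENO1 missed the threshold at 0.49 (exact p = 0.0649, adjusted 0.0699).

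Pyruvate kinase closes the pathway. PKM (chromosome 15, 72199029 to 72231822, minus strand) makes M1 mRNA when exon 9 is kept and M2 mRNA, the form of dividing cells, when exon 10 is kept. The exons are equally long, 167 bases, and are shown because the reads are split between forms by them. Capitals mark the 62 bases that differ, which leaves 62.9% identical. They come from GENCODE release 29 on GRCh38, at chr15:72203022-72203188 and chr15:72202454-72202620, minus strand.
PKM exon 9: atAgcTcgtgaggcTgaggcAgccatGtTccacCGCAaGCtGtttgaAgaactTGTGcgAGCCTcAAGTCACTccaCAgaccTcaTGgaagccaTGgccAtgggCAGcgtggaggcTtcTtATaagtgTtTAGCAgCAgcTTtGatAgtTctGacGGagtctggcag
PKM exon 10: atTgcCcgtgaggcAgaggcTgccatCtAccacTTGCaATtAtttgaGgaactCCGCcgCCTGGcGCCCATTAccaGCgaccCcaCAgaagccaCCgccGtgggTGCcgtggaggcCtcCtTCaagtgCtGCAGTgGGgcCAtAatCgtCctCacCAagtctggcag

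PKM rose up to 24 h and then fell back in part. Its libraries read 361 and 434 CPM at 0 h, 797 and 694 at 3 h, 1187 and 1224 at 6 h, 1616 and 1808 at 24 h, 1087 and 1123 at 48 h, then 915 and 944 at 72 h. Against 0 h PKM was higher by 0.91 at 3 h (SE 0.11, adjusted p = 1.26e-05) and 2.11 at 24 h (SE 0.11, adjusted p = 1.78e-09), and from 24 to 72 h it fell by 0.88 (adjusted p = 4.86e-05). Every library from 3 h on lay above every earlier one.

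The form of PKM did not switch. The M2 form carried 94.7 to 98.5% of the TPM of both forms in every library. The ratio of M1 to M2 differed late against early by -0.42 (exact p = 0.266, adjusted 0.266), and the early libraries ranged from -6.03 to -4.16 and the late ones from -5.84 to -5.51 on the log2 scale. PKLR, the liver and red-cell pyruvate kinase and no member, is given because its level sets PKM apart. It read 38.1 and 43.5 CPM at 0 h, 20.3 and 25.8 at 6 h, 1.23 and 1.97 at 24 h, then 0.641 and 0.500 at 72 h. PKLR fell by 6.14 at 72 h (SE 0.35, adjusted p = 4.12e-09), and its share of the TPM of both genes went from 6.71 and 6.53% to 0.0473 and 0.0356%; this share was chosen after its values were seen.

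**Figure D4:**
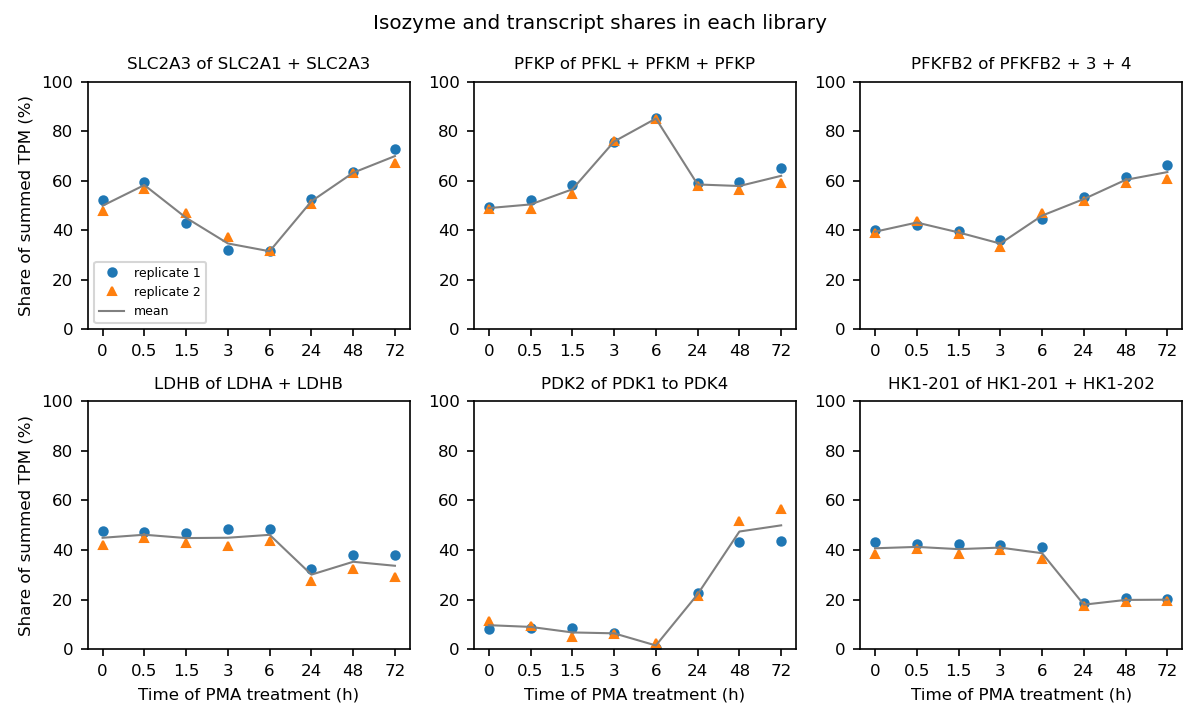
Share (%) of a member or transcript in the summed TPM of its isozymes, from 0 to 100, at each time of PMA treatment in h; circles are replicate 1, triangles replicate 2 and the line joins their means. SLC2A3 has its lowest share at 6 h and PFKP its highest, while HK1-201 stays at 36.3% or more to 6 h and at 20.6% or less from 24 h.

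Lactate dehydrogenase turns pyruvate into lactate and back, with LDHA favouring lactate and LDHB, the heart form, favouring pyruvate. LDHB (chromosome 12, 21635342 to 21757857, minus strand) held 437 and 439 CPM at 0 h, 398 and 391 at 6 h, 207 and 206 at 24 h, 201 and 194 at 48 h, then 204 and 150 at 72 h. All libraries from 24 h on lay below all earlier ones, and LDHB fell by 1.31 at 72 h (SE 0.13, adjusted p = 8.49e-07). LDHA read 533 and 560 CPM at 0 h and 372 and 321 at 72 h and fell by 0.66 there (SE 0.10, adjusted p = 4.97e-05). Both genes fell, LDHB by more: the log2 ratio LDHB over LDHA fell by 0.76 from early to late (exact p = 0.00216, adjusted 0.00505), without overlap, and the LDHB share of TPM went from 47.8 and 42.1% at 0 h to 38.0 and 29.3% at 72 h.

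Lactate leaves through MCT1, encoded by SLC16A1, and MCT4, encoded by SLC16A3, the form of strongly glycolytic cells. SLC16A1 read 300 and 252 CPM at 0 h and 195 and 142 at 72 h, and fell by 0.71 there (SE 0.14, adjusted p = 0.000556). SLC16A3 read 4.70 and 4.73 CPM at 0 h, 2.69 and 2.23 at 6 h, 8.68 and 8.76 at 24 h, then 8.25 and 10.7 at 72 h. It fell by 0.94 at 6 h (SE 0.17, adjusted p = 0.000284) and was higher by 1.01 at 72 h (SE 0.16, adjusted p = 8.4e-05).

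The late libraries of SLC16A3 were all above the earlier ones. The ratio of SLC16A3 to SLC16A1 was higher late by 2.55 (exact p = 0.00216, adjusted 0.00505), without overlap. MCT1 stayed the main form, as SLC16A3 made up 1.71 and 1.62% of their TPM at 0 h and 6.61 and 9.51% at 72 h. SLC16A3 overlaps CSNK1D on the other strand, with the same limit as for ENO3.

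The pyruvate dehydrogenase kinases switch the enzyme off and so limit the use of pyruvate in the mitochondrion. PDK2 (chromosome 17, 50094737 to 50112152, plus strand) had the widest range of time-point means among the members, 53.8 times from lowest to highest. It read 0.256 and 0.425 CPM at 6 h against 15.6 and 21.0 at 72 h. The 6 h values rest on 6 and 12 reads, so the size of this range is uncertain. At the other times it read 1.29 and 1.67 CPM at 0 h, 5.62 and 5.64 at 24 h, then 12.3 and 13.7 at 48 h. The log2 fold change was -2.08 at 6 h (SE 0.30, adjusted p = 4.18e-05), 1.93 at 24 h (SE 0.22, adjusted p = 4.52e-06) and 3.63 at 72 h (SE 0.22, adjusted p = 7.58e-09).

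PDK1, the form induced by low oxygen, held 42.8 to 60.9 CPM in every library and passed neither against 0 h at any time nor over the whole course (adjusted p = 0.0592). On TPM, the scale of the shares, PDK1 was not flat: its mean was 14.8 at 0 h and 24.1 at 72 h. PDK1 carried 83.3 and 82.2% of the TPM of the 4 kinases at 0 h and 54.6 and 42.1% at 72 h, while PDK2 went from 8.02 and 11.3% to 43.5 and 56.4%. The ratio of PDK2 to PDK1 was higher late by 2.77 (exact p = 0.00216, adjusted 0.00505), without overlap.

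PDK3 and PDK4 were scarce. PDK3 lay between 0 and 2.69 CPM, with 88.3% of its reads on a transcript annotated as nonsense-mediated decay, and did not pass over the whole course (adjusted p = 0.695). PDK3 over PDK1 differed late against early by -1.20 on TPM (exact p = 0.00866, adjusted 0.0152), with overlap, but by -0.14 on estimated reads, where it did not pass. PDK4, the fasting-induced form, stayed at or under 0.766 CPM and fell by 1.50 at 3 h (SE 0.53, adjusted p = 0.0328) and by 1.92 at 24 h (SE 0.54, adjusted p = 0.00688), where its libraries read 0.0323 and 0.208 CPM; the first of these is 1 read, and its ratio was not tested. Leaving out 24 h replicate 2 gave -3.88 and leaving out 24 h replicate 1 gave -1.30 for the 24 h value, which missed the threshold with -1.61 when 0 h replicate 1 was left out. The 3 h call held in 8 of 14 alternatives.

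PDHA1, the catalytic subunit that these kinases phosphorylate, was higher at 3 h by 0.24 (SE 0.09, adjusted p = 0.0461) and fell by 0.35 at 72 h (SE 0.09, adjusted p = 0.0049). It read 121 and 131 CPM at 0 h, 154 and 144 at 3 h, then 103 and 95.1 at 72 h. The rise at 3 h turned to -0.041 on the total-count scale.

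**Figure D5:**
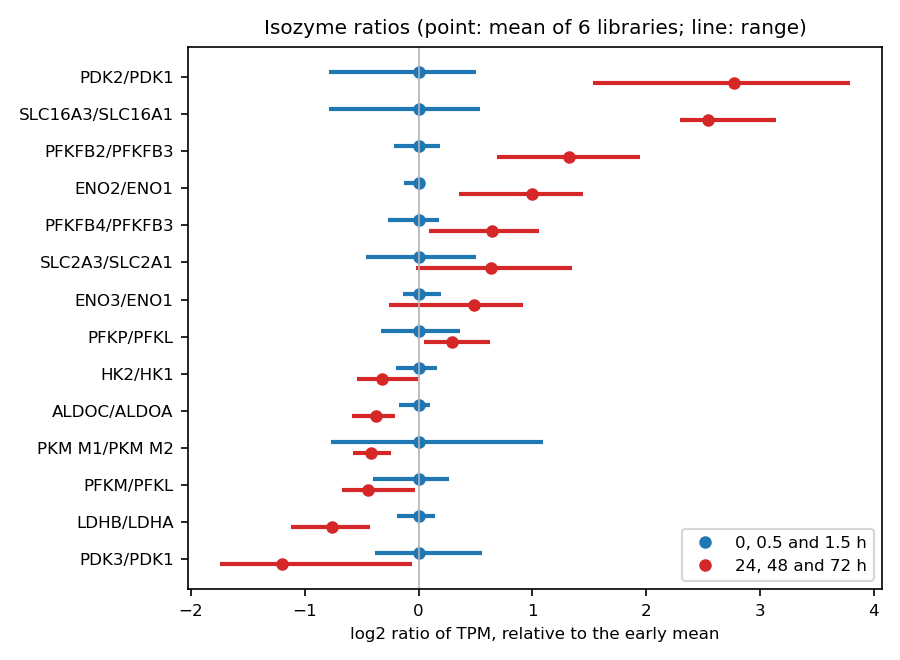
The log2 ratio of TPM of 14 isozyme pairs relative to its early mean, for the 6 libraries at 0, 0.5 and 1.5 h (blue) and the 6 at 24, 48 and 72 h (red); points are means and lines the full range. The early and late ranges of PDK2/PDK1, SLC16A3/SLC16A1, PFKFB2/PFKFB3, ENO2/ENO1, ALDOC/ALDOA and LDHB/LDHA do not meet.

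TIGAR, which breaks down fructose 2,6-bisphosphate, was higher at 6 h by 0.67 (SE 0.21, adjusted p = 0.0127, held in 9 of 15 alternatives), with 9.76 and 9.30 CPM at 0 h and 14.6 and 15.9 at 6 h. BPGM makes 2,3-bisphosphoglycerate, which red cells use to release oxygen from haemoglobin. It read 8.81 and 9.04 CPM at 0 h and 16.6 and 12.9 at 72 h, and was higher by 0.73 there (SE 0.16, adjusted p = 0.00125).

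Between 6 and 24 h 19 members were called (56.6% of all genes), 14 higher (30.8%) and 5 lower (25.8%). Those lower at 24 h were SLC2A1, PFKP, LDHB, SLC16A1 and PDK1, the last with -0.30 (adjusted p = 0.0336, held in 8 of 15 alternatives). PFKM, higher by 1.32 (SE 0.12, adjusted p = 7.07e-07), PFKFB4, by 1.33 (SE 0.14, adjusted p = 2.37e-06), and HK2, by 0.72 (adjusted p = 2.66e-05), came back from their dips. From 24 to 72 h 12 members were called (26.3% of all genes), 6 higher (13.9%) and 6 lower (12.4%), and without the second 24 h library 7 were. Over the whole course 29 of the 32 members passed (82.9% of all genes), all but GAPDH, PDK1 and PDK3.

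Related genes outside the 32 are given from lists by counts. Of 15 other isozymes tested, 1 was higher and 9 were lower at 6 h, and 5 were higher and 5 lower at 72 h. SLC2A12, a further glucose transporter, fell by 1.28 at 6 h (SE 0.32, adjusted p = 0.00323) to 0.427 and 0.496 CPM, then rose by 3.86 at 72 h against 0 h (SE 0.24, adjusted p = 9.63e-09), from 1.32 and 0.933 CPM at 0 h to 18.9 and 14.0, and BSG, which carries the lactate transporters to the membrane, by 0.40 (adjusted p = 0.0125). Of 9 genes of the pentose phosphate pathway, 1 was higher and 5 were lower at 72 h. H6PD, its enzyme in the endoplasmic reticulum, went from 42.6 and 48.6 CPM to 215 and 238, a rise of 2.31 (SE 0.10, adjusted p = 3.42e-10), while PGLS fell by 0.71 (adjusted p = 0.00207). PGD, the most abundant of them, was at 0.12 (adjusted p = 0.429).

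Among 10 genes of pyruvate entry to mitochondria, 2 were higher and 5 lower at 72 h. PC, pyruvate carboxylase, fell by 1.01 there (SE 0.20, adjusted p = 0.000582). DLD fell by 0.47 (adjusted p = 0.0209), but its libraries overlapped, with 228 and 150 CPM at 0 h and 152 and 120 at 72 h. PDP1, the phosphatase that reverses the PDK reaction, was higher at 6 h by 1.52 (SE 0.21, adjusted p = 2.61e-05) and at -1.55 at 24 h (SE 0.23, adjusted p = 6.28e-05). PDP1 read 3.71 and 2.45 CPM at 0 h, 8.92 and 8.74 at 6 h, then 0.839 and 1.22 at 24 h.

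Of 15 glycogen and gluconeogenesis genes tested, 3 were higher and 9 lower at 6 h, and 5 were higher and 5 lower at 72 h. PCK2, the mitochondrial enzyme that makes phosphoenolpyruvate, fell by 3.39 at 6 h (SE 0.16, adjusted p = 8.22e-10), from 125 and 165 CPM to 14.9 and 13.0, and PHKB by 1.48 (SE 0.09, adjusted p = 8.53e-09). Of 19 regulators tested, 4 were higher and 9 lower at 6 h, and 3 were higher and 11 lower at 72 h. TXNIP, which restrains glucose uptake and responds to glucose, fell by 3.46 at 6 h (SE 0.12, adjusted p = 4.4e-11), from 423 and 392 CPM to 36.5 and 37.5. MLXIPL, the glucose-sensing factor ChREBP, fell by 3.03 at 72 h (SE 0.18, adjusted p = 5.01e-09), and FOXK1 by 0.29 (adjusted p = 0.0254). Called shares over all genes at these times are those given above, and nothing is called particular to a list.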

How the data were processed

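Total RNA of 16 K562 libraries, depleted of ribosomal RNA per the labels' protocols, was quantified by the authors as estimated counts and TPM per transcript, with lengths, per the file headers. The submitters' processing notes name Trim Galore 0.4.3, Salmon, HISAT2 2.1.0, SAMtools 1.9, deepTools 3.0.1, R 3.3.1, DESeq2 and DESeq 1.33.5, and hg19 and hg38, with no role; the index and the Salmon version are not given in the sources used here. The deposited estimated counts and deposited TPM were summed per gene through GENCODE release 29 identifiers without version (167027 of 177456 transcripts matched; 3.01 to 3.75% of reads did not), and counts were rounded.

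The gene tests used edgeR 4.0.16 (R 4.3.3; TMM factors 0.854 to 1.139, filterByExpr, 1 mean per time over all 16 libraries, quasi-likelihood F-test, Benjamini-Hochberg over 17559 genes, called under 0.05; 8 residual degrees of freedom). A standard error is the absolute unshrunk log2 fold change divided by the square root of F. Ratio tests used Python 3.11.15 and needed 10 estimated reads in each of the 12 libraries. On simulated counts for 72 h against 0 h over 17559 genes the test recovered 80% of 2-fold and 98% of 4-fold changes, and 4 of 182 calls were false. Few genes were changed there, as many up as down, with the spread fitted here. In the data 10294 genes were called at 72 h, so these rates may not carry over. A floor of 3 reads was 0.0574 to 0.113 CPM, for counting error only.

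All 32 members are named. Some items of the marker lists are not reported here. Genes outside them come from 5 lists by rule: the largest called change at 72 h and at 6 h with a mean of at least 5 CPM, and the highest mean CPM. The members, lists, pairs and motifs were chosen with earlier results of these data known, as was the removal of GC trends among the alternatives, which was added after seeing the data. In the printed HK1 window the marked motif was also changed, from GATAA, which had no match there, to TGANTCA, which had 1. The other alternatives were size factors, total-count scaling, filters, TPM-derived counts, the replicate block, protein-coding transcripts only, a stricter threshold, fits of 2 times, libraries left out, and DESeq2 1.42.0.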

Additional observations from a re-analysis of the deposited data

Results flagged for a closer look

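PFKFB2, ENO3, SLC16A3 and PDK2 each passed below 0 h at 6 h and above 0 h at 24 h. The rule that flagged them also required a call between 6 and 24 h in edgeR's quasi-likelihood F-test. The adjusted p-values and the order of the libraries below therefore follow from the selection and give no further support. From 6 to 24 h PFKFB2 was higher by 0.79 (adjusted p = 8.76e-05), ENO3 by 1.22 (adjusted p = 7.59e-06), SLC16A3 by 1.83 (adjusted p = 8.43e-07) and PDK2 by 4.01 (adjusted p = 5.84e-08), on the log2 scale. In all 4 genes both 24 h libraries lay above both 6 h libraries. For PFKFB2 at 6 h, the log2 fold change was 0.021 when counts were derived from TPM.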

How the results depend on the processing

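Of 113 calls of single members, 67 kept their direction and their side of the threshold in all alternatives run; of 1686 values, 1471 did, 210 lost the threshold and 5 changed sign. The sign changes were PFKFB3 at 3 h (-0.0087) and 24 h (-0.056) and PFKFB2 at 6 h (0.021) with counts from TPM, PDHA1 at 3 h (-0.041) with total counts, and PFKL at 24 h against 6 h (-0.014) with GC trends removed. The cause was not tested. Members called at 0.5 h were 2 with no filter and 0 to 4 with a library left out, the 4 without the first 0 h library. At 1.5 h they were 1 with DESeq2 size factors, 2 with counts from TPM, 0 under an adjusted p of 0.01, 0 with only 2 times fitted, and 0 to 3 with a library left out. At 3 h they were 4 under 0.01, 4 with only 2 times fitted, 16 with GC trends removed, and 7 to 15 with a library left out, the 15 without the second 3 h library. At 24 h they were 25 with GC trends removed, and from 24 to 72 h 7 to 13 with a library left out. The higher and lower calls with GC trends removed were 5 and 1 at 1.5 h, 13 and 3 at 3 h, 11 and 10 at 6 h, 17 and 8 at 24 h, and 12 and 10 from 6 to 24 h. Across genes the log2 fold change correlated with GC content at r = -0.77 at 0.5 h and -0.43 at 1.5 h, and the members' median GC content was 54.2% against 48.8% for all genes.

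The ratio PFKP/PFKL passed on estimated reads (0.37), where PFKM/PFKL (-0.38), PFKFB4/PFKFB3 (0.11) and PDK3/PDK1 (-0.14) did not. With 0 and 0.5 h against 48 and 72 h, SLC2A3/SLC2A1 (0.76) and ENO3/ENO1 (0.86) passed. With protein-coding transcripts only, PFKM/PFKL (-0.63) and PFKFB4/PFKFB3 (0.44) did not. With a library left out, HK2/HK1 ranged from -0.39 to -0.28 and lost the threshold in 7 of these fits, while SLC2A3/SLC2A1 (0.50 to 0.77), PFKP/PFKL (0.22 to 0.36) and ENO3/ENO1 (0.40 to 0.64) passed in some. With the replicate number as a block, HK2/HK1 (-0.32) lost the threshold, and 0, 6, 11, 20, 18, 18 and 20 members were called at 0.5 to 72 h; all 113 calls of single members were kept. The replicate numbers were not treated as pairs, since not every correlation of replicate differences was over 0.1: the 28 ran from -0.12 to 0.21 with a median of 0.098, and 14 were over 0.1.

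Depth limits PDK3 and PDK4, with as few as 0 and 1 reads, and PDK2 at 6 h, with 6 and 12 reads. The design has 2 libraries a time, reads of overlapping genes cannot be parted without strand, and transcript shares rest on the authors' assignment of reads.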
